A study of Homo sapiens with 5 samples.

Results

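H3K9me3, the trimethylated form of lysine 9 on histone H3 and a hallmark of heterochromatin, was examined at 8 human genes that derive from endogenous retroviruses and encode envelope proteins. They were chosen by name, as ERVFC1, ERVW-1, ERVFRD-1, ERVV-1, ERVV-2, ERV3-1, ERVMER34-1 and ERVH48-1, and make up 8 of the 20037 protein-coding genes on chromosomes 1 to 22, X and Y in the RefSeq table of GRCh38.p14. The mark had been profiled by ChIP-seq, the sequencing of immunoprecipitated chromatin, in HEK293T, an established cell line from human embryonic kidney. The series has 5 samples with 1 library per group: H3K9me3 libraries of the genotypes WT, EV and KD, and input libraries of WT and EV. KD is a knockdown of a target written KCNQ1OT1_K, in which KCNQ1OT1 is an imprinted antisense non-coding RNA, and EV, commonly short for empty vector, is read as its control. The knockdown method, the vector and whether the cells were clonal are not stated in the labels. The data are 3 lists of broad peaks, the EV list, the KD list and a list with no genotype in its name, which was assigned to no sample and is given as a list of its own. With a single library in each of the EV and KD groups, differences cannot be set against a spread between replicates, and conditions were not tested against each other. No read counts come with the lists, so the depth is unknown.

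An endogenous retrovirus is the remnant of a retrovirus that inserted into the germ line, with long terminal repeats (LTRs) on either side of the gag, pol and env genes. Most copies have decayed, and a few env genes still encode a full protein, several of them expressed in the placenta. Syncytin-1 (ERVW-1) and syncytin-2 (ERVFRD-1) fuse trophoblast cells, and suppressyn (ERVH48-1) is a secreted protein that inhibits fusion by syncytin-1. In many cell types, zinc finger proteins of the KRAB family bind retroviral sequences and, through TRIM28, recruit the methyltransferase SETDB1, which places H3K9me3.

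H3K9me3 peaks lay in the body of 3 of the envelope genes, and 5 carried none in any list. ERVFC1 was covered over 76.8% of its 7636 bp in EV, 36.2% in KD and 37.8% in the list without a genotype. ERVV-2 was covered over 25.1% in EV and 13.8% in the list without a genotype, and had no KD peak. ERVMER34-1 was covered over 13.1% in EV and 6.23% in KD, and had no peak in the list without a genotype. ERVFC1 was thus the only member with a peak in its body in all 3 lists (1 of 8, against 3.1% of all protein-coding genes and 0.74% of those of like length). ERVW-1, ERVFRD-1, ERVV-1, ERV3-1 and ERVH48-1 were at 0% in each list.

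**Figure D1:**
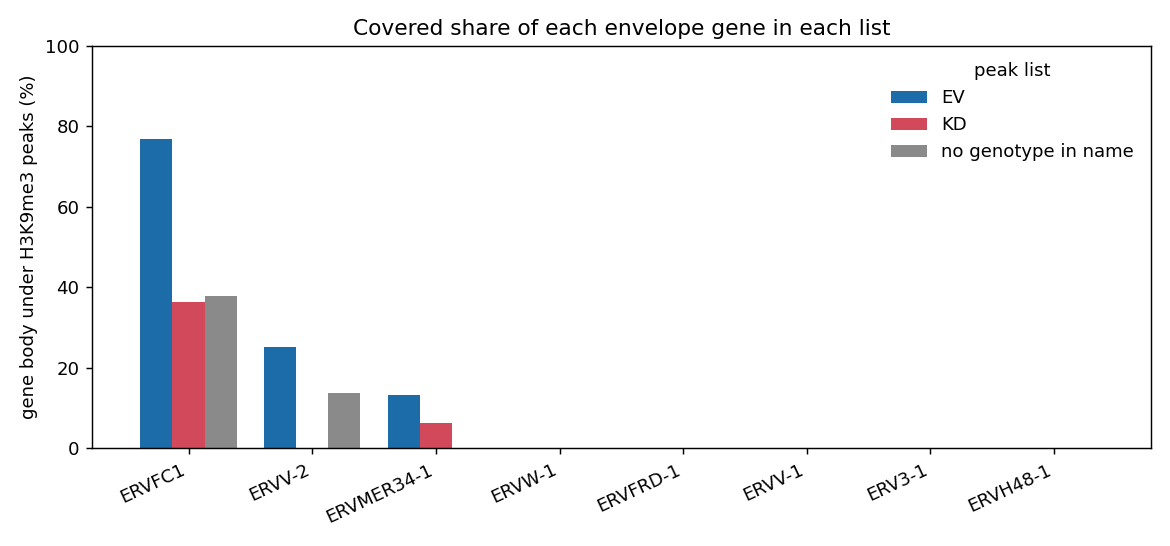
Share of each gene body (percent of its length, vertical axis) lying under H3K9me3 peaks, for the 8 envelope genes (horizontal axis) in the EV, KD and no-genotype lists, with no replicates and so no error bars. ERVFC1 stands highest in every list, at 76.8%, 36.2% and 37.8%, and 5 genes are at 0% throughout.

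At least 10% of the gene body was covered in 3 of the 8 genes in EV, where 2.75% of all protein-coding genes reached that share. The count was 1 of 8 in KD, against 1.55%, and 2 of 8 in the list without a genotype, against 0.774%. Among the 6620 protein-coding genes within the members' range of lengths, from 2203 to 16332 bp, these shares were 4.49%, 3.08% and 1.01%. Any peak in the body was found in 3 members in EV, 2 in KD and 2 in the list without a genotype. This was so for 24.5%, 11.5% and 7.26% of all protein-coding genes and for 8.13%, 5.32% and 1.69% of those of like length. The median covered share of the 8 members was 0% in each list, as it was over all protein-coding genes. The family was proposed with peaks of these lists in view, so nothing is read from the difference between its counts and these shares.

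By −log10 p, the peaks in these genes and within 10 kb of them were ordinary or weak ones of their lists. There were 8 in EV, 5 in KD and 5 in the list without a genotype. Their fold enrichment over the caller's background, the authors' own value for each peak, ran from 2.15 to 3.66 in EV, from 3.15 to 3.85 in KD and from 3.18 to 3.999 in the list without a genotype. Their −log10 p, also the authors', ran from 3.19 to 4.71, from 3.79 to 4.56 and from 3.51 to 4.88. By −log10 p, the strongest of the EV peaks was matched or exceeded by 49.5% of all EV peaks, the strongest KD peak by 60.3% of the KD list, and the strongest in the list without a genotype by 33.4% of that list. In width, the EV peak in ERVFC1 was matched or exceeded by 5.88% of the EV list. In fold enrichment, a peak of the list without a genotype in ERVFC1 was matched or exceeded by 17.0% of that list. Every one of the 5 KD peaks was overlapped by an EV peak by at least 1 bp, while 3 of the 8 EV peaks were overlapped by a KD peak. Over all chromosomes, 87.7% of the KD peaks and 37.7% of the EV peaks, were overlapped in this way. Endogenous retroviruses exist in many similar copies, and reads from such copies can match several places. The handling of such reads is not stated in the labels, and its part in these peaks was not tested.

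ERVFC1, the envelope gene of a HERV-Fc1 element, lies on the plus strand of chromosome X at 97841746 to 97849381, and its RefSeq transcript is a predicted model. In EV a single peak of 5868 bp ran from 97841878 to 97847745, with an enrichment of 3.39-fold and a −log10 p of 4.40. In KD the gene held 3 shorter peaks. They lay at 97842547 to 97843874 (1328 bp, fold enrichment 3.73), 97845648 to 97845980 (333 bp, 3.48) and 97847156 to 97848262 (1107 bp, 3.54). The list without a genotype held 2 peaks, at 97844716 to 97846614 (1899 bp, fold enrichment 3.34) and 97848007 to 97848997 (991 bp, 3.999). All 6 peaks lay wholly inside the gene.

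**Figure D2:**
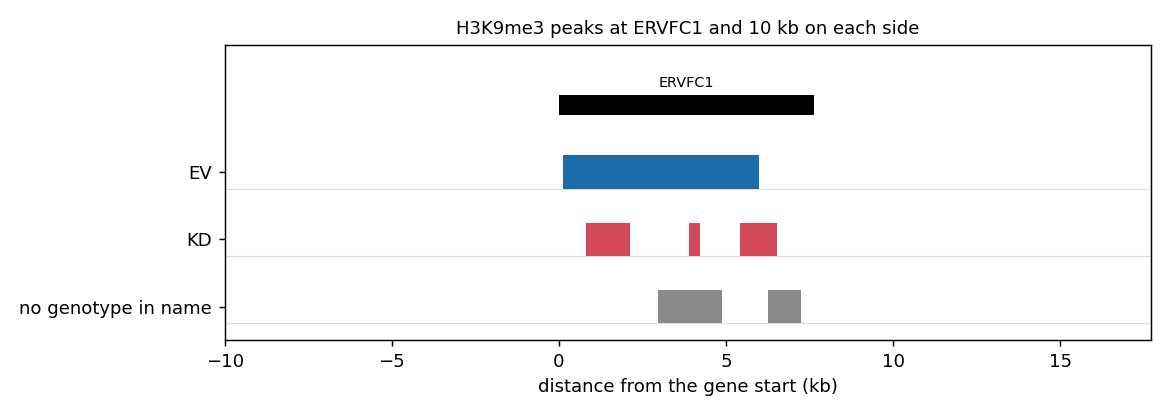
Map of H3K9me3 peaks (bars) in the EV, KD and no-genotype lists at ERVFC1 (black bar), with distance from the gene start in kb on the horizontal axis and 10 kb on each side. The single EV bar of 5868 bp, the 3 KD bars and the 2 bars of the list without a genotype all lie within the gene.

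The EV peak began 132 bp after the gene start, the first KD peak 801 bp after it and the first peak of the list without a genotype 2970 bp after it. The 3 KD peaks were separated by gaps of 1773 and 1175 bp, and from the first to the last they spanned 5716 bp, or 74.9% of the gene, against 76.8% for the EV peak. The EV peak and the KD span were thus of nearly the same length, with the gaps counted in the KD span though no KD peak covered them. They were offset, ending 1636 bp before the gene end in EV and 1119 bp before it in KD. Joining peaks within 3 kb of each other fills these gaps by construction. ERVFC1 was then covered over 76.8% in EV, 74.9% in KD and 56.1% in the list without a genotype. When the EV list was shortened to the length of the KD list, by −log10 p, the EV peak dropped out, and the shares were 0% and 36.2%. With a −log10 q of at least 2, the EV peak and a peak of the list without a genotype remained, with 76.8% and 13.0%, and KD was at 0%, so that no member then had a peak in all 3 lists.

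Peaks of at least 1 list covered 93.2% of ERVFC1 and peaks of at least 2 lists 53.3%. Only 333 bp, the middle KD peak, were covered in all 3. The KD peaks overlaid 38.4% of the EV peak. Of the 1530 EV peaks at least 4000 and under 8000 bp wide on all chromosomes, 80.9% were overlapped by KD, and the median share of their bases under KD peaks was 37.0% (quartiles 13.2% and 63.9%). Among the 625 of them with a −log10 p under 6, as at ERVFC1, 375 were overlapped and the median share was 13.9% (quartiles 0% and 36.2%). The share at ERVFC1 was thus near the median for peaks of its width and just above the upper quartile for those that were also of low significance. Being overlapped by 3 or more KD peaks was rare among the 1530, with 16 such peaks (1.05%), of which the one in ERVFC1 is an example. Both comparisons with wide EV peaks were added after the ERVFC1 peaks were seen.

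The mark at ERVFC1 was local. No list had another peak within 50 kb of the gene, and the nearest lay 77394 bp away in EV, 77507 bp in KD and 199179 bp in the list without a genotype. The nearest annotated genes were DIAPH2, which encodes a formin, 236750 bp away, and the pseudogene NCKAP1P1, 57266 bp away. A peak in the body in all 3 lists with none in the 50 kb on either side was found in 5 of the 6620 protein-coding genes of like length (0.0755%), and in 0.809% of all protein-coding genes. This criterion was set after the ERVFC1 peaks were seen. Without the condition on the flanks the counts were 49 of the genes of like length and 621 of all. Of those 49 and 621 genes, 5 and 162 had empty flanks. The small shares thus rest largely on the peaks in all 3 lists. The other 4 of the 5 genes of like length were HRNR, which encodes the skin protein hornerin, KCNA5, a potassium channel gene, MAGEA4, a testis-restricted antigen gene, and SCNN1D, a sodium channel subunit gene.

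The gene start of ERVFC1 lay outside the peaks of every list. Its sequence is shown from 250 bases before the start to 30 after it, because it carries a TATAAA match at position -58, counted from the annotated start, in capitals. The other capitals mark CG dinucleotides, the sites of DNA methylation, of which the printed stretch holds 15. The sequences here and in the paragraphs on ERVMER34-1 and ERV3-1 come from RefSeq on build GRCh38.p14, 5′ to 3′ on the gene's strand, and this one is chrX:97841496-97841775, plus strand.
ERVFC1: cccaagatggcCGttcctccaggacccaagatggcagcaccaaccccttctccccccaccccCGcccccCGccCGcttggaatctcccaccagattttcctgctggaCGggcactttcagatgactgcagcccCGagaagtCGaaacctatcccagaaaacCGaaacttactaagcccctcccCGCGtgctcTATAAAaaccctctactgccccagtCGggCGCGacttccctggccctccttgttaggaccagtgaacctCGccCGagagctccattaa

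Retroviral LTRs carry a promoter with a TATA box and a polyadenylation signal, AATAAA, near the start of transcription. In the 300-base window around the ERVFC1 start, from 250 bases before to 50 after, AATAAA was also found, at position 29. TATAAA, searched on both strands, was found in 11.5% of the 35116 RefSeq promoter windows of this length, and AATAAA in 17.4%. A match is a description of the letters and does not show a working site.

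The protein-coding genes whose covered shares were most like those of ERVFC1 were chosen by Euclidean distance over the 3 lists. HELT, a basic helix-loop-helix factor gene on chromosome 4, came nearest, with 85.7% in EV, 52.7% in KD and 42.7% in the list without a genotype (distance 19.3 percentage points). HRNR had 59.2%, 54.4% and 37.9%. The homeobox gene ANHX had 100% in EV, 24.9% in KD and 40.8% in the list without a genotype. KCNA5 had 60.2%, 17.3% and 26.8%, and CENPVL1, also on chromosome X, 78.0%, 48.6% and 64.0%. None of these 5 is a retroviral envelope gene. ERVFC1 ranked among the most covered of the 20037 protein-coding genes, with 55 covered at least as far in EV, 98 in KD and 53 in the list without a genotype, itself included.

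ERVV-1 and ERVV-2 are a pair of related envelope genes 28616 bp apart on chromosome 19, at 53013921 to 53016123 and 53044740 to 53051680, known for expression in the placenta. In EV the pair lay in a stretch with 6 peaks, in KD the same stretch held 1, and the list without a genotype held 3. The stretch is 57760 bp long, from 10 kb before ERVV-1 to 10 kb after ERVV-2, and was outlined after the peaks were seen. Peaks covered 17.5% of it in EV, 0.824% in KD and 3.88% in the list without a genotype. The strongest EV peak of the stretch had a −log10 p of 4.71 and the next 4.49. Only the former reached the 4.60 kept when the EV list was shortened to the KD list's length, while the KD list stayed whole.

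Within ERVV-2 the EV list had a peak at 53046827 to 53048569 (1743 bp, fold enrichment 2.70, −log10 p 3.45). The list without a genotype had a peak at 53045805 to 53046762 (958 bp, 3.18, 3.65), which ended 64 bp before the EV peak and did not overlap it. Both lists thus had a peak in the gene, at adjoining places that did not overlap. The EV peak of ERVV-2 dropped out with a −log10 q of at least 2, a fold enrichment of at least 3 or the EV list shortened to the KD list's length, and the gene was then at 0% in EV as in KD. With a −log10 q of at least 2, the gene was at 0% in the list without a genotype too, against 13.8% as reported. ERVV-1 itself held no peak in any list. The nearest lay 4859 bp away in EV, 26164 bp in KD and 7619 bp in the list without a genotype.

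The only KD peak of the stretch lay between the pair, 1978 bp from ERVV-2, at 53042287 to 53042762. An EV peak at 53042286 to 53042767 had almost the same edges, differing by 1 bp at the start and 5 bp at the end. The other 5 EV peaks of the stretch had no KD partner, as was so for 62.3% of all EV peaks. Of these, 3 lay in LOC124904758, a non-coding gene that contains ERVV-1 and was covered over 20.0% in EV, 0% in KD and 3.13% in the list without a genotype. A further peak covered 73.1% of LOC124904762, a short non-coding gene 5718 bp beyond ERVV-2, in EV and none of it in the other lists.

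**Figure D3:**
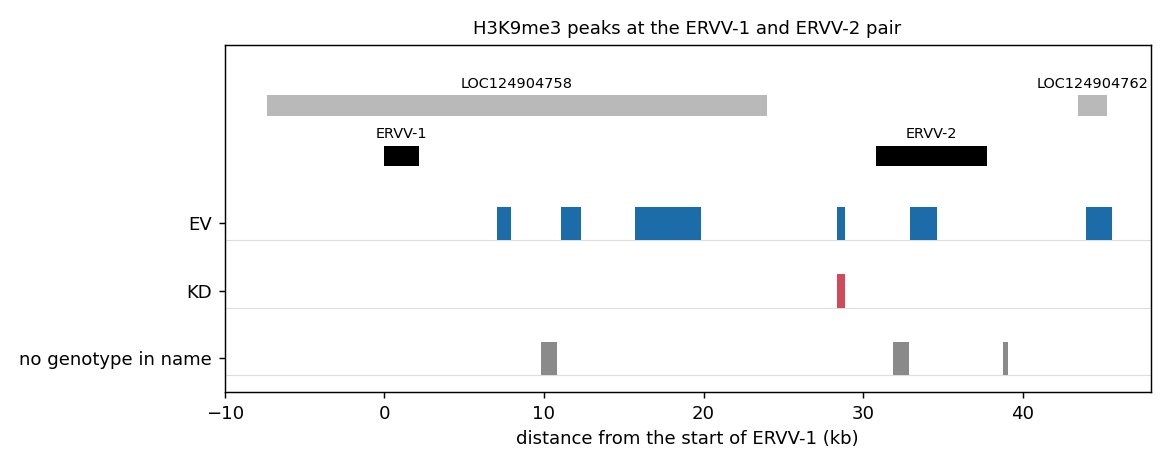
Map of H3K9me3 peaks (bars) in the EV, KD and no-genotype lists around ERVV-1 and ERVV-2 (black) and the non-coding genes that overlap their 10 kb windows and carry peaks (grey), with distance from the start of ERVV-1 in kb. EV has 6 peaks in the stretch, KD 1 and the list without a genotype 3, and no peak lies in ERVV-1.

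The contrast between the lists at the ERVV pair went well beyond the pair. In the sequence 200 kb to 1 Mb from ERVV-1 on either side, peaks covered 8.56% in EV, 0.900% in KD and 3.61% in the list without a genotype. From 50 to 200 kb the shares were 9.69%, 0.551% and 4.49%. The difference between the lists at the pair thus extended over the surrounding part of chromosome 19. These shares were not recomputed with equal peak numbers. The whole lists had the same order, with 50.5 Mb covered in EV, 20.6 Mb in KD and 29.8 Mb in the list without a genotype. Whether the region differs from the whole lists was not tested. Around ERVFC1 the ring from 200 kb to 1 Mb was covered over 0.990%, 0.0503% and 0.0666%, also highest in EV, and in each list far below the gene itself.

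ERVMER34-1 encodes HEMO, an envelope protein shed from the cell surface that is found in the blood in pregnancy. The gene lies on the minus strand of chromosome 4, at 52742553 to 52751425, and the higher coordinate is its start. The EV peak lay just inside the start, at 52749894 to 52751059 (1166 bp, fold enrichment 2.79, −log10 p 3.19), and ended 366 bp short of it. The KD peak lay across the start, at 52750873 to 52751715 (843 bp, 3.85, 4.56), with 553 bp in the gene and 290 bp before it. The peaks shared 187 bp. The EV peak was among the weakest of its list, of which 93.2% was at least as significant, and for the KD peak this share was 60.3%.

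The KD peak covered all 300 bases of the ERVMER34-1 promoter window and the EV peak none. The KD peak also covered 28.9% of LOC107986281, a non-coding gene that overlaps the start, where the EV peak covered 3.59%. A peak in the promoter window in KD and not in EV was found for 0.423% of 22199 promoter windows of protein-coding genes, and the reverse for 0.964%. The order of the lists at ERVMER34-1 depended on the threshold. With a −log10 q of at least 2, a fold enrichment of at least 3, or the EV list shortened to the KD list's length, the EV peak dropped out and the gene was covered over 0% in EV and 6.23% in KD.

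The start of ERVMER34-1 is shown because it is the only matched promoter window of a member under a peak. Capitals mark CG dinucleotides, of which the printed stretch holds 22, and it carries no TATAAA. It is chr4:52751396-52751675, minus strand.
ERVMER34-1: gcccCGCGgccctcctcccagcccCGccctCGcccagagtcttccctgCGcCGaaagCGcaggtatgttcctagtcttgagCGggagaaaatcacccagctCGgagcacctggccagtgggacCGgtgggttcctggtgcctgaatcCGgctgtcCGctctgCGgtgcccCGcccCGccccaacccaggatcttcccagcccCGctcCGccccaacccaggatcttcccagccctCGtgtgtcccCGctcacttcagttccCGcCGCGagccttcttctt

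**Figure D4:**
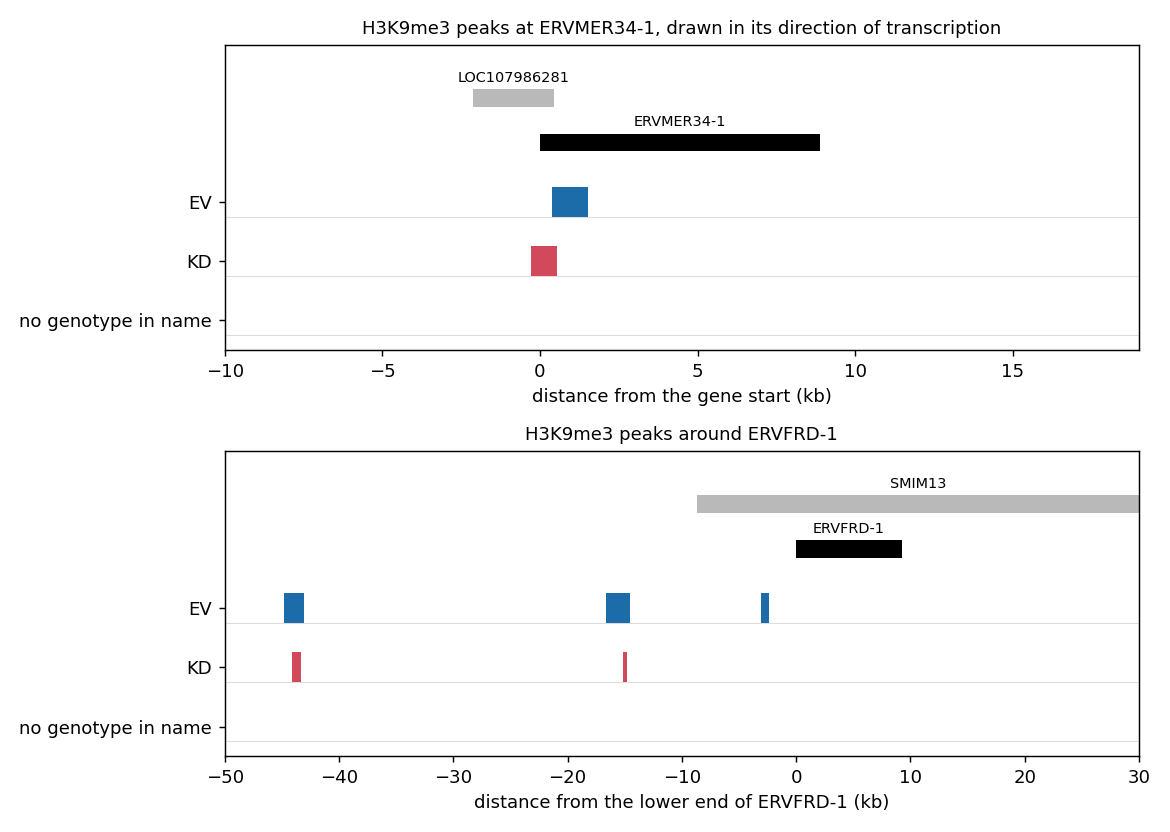
Maps of H3K9me3 peaks (bars) in the EV, KD and no-genotype lists at ERVMER34-1 (upper panel, kb from the gene start, drawn in the direction of transcription) and around ERVFRD-1 (lower panel, kb from its lower coordinate), with the genes in black and overlapping genes in grey. The KD peak crosses the start of ERVMER34-1 and the EV peak lies inside the gene, and no peak lies in ERVFRD-1.

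The syncytin genes and the suppressyn gene carried no peak in any list. ERVFRD-1, for syncytin-2, lies on chromosome 6 at 11102489 to 11111725, inside the span of SMIM13, which encodes a small membrane protein. An EV peak at 11099412 to 11100123 (712 bp, fold enrichment 2.79, −log10 p 4.37) lay 2366 bp from it, within SMIM13, and had no KD partner. Farther out, at 14529 and 43027 bp, EV had 2 peaks that KD peaks overlapped. Of these the more distant, at 11057697 to 11059462, had a −log10 p of 13.5 in EV. Each list is described by its own values, and the list without a genotype had no peak within 1009133 bp of ERVFRD-1.

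ERVW-1, for syncytin-1, lies on chromosome 7 at 92468380 to 92477946, within the span of GATAD1, a gene of a chromatin-associated zinc finger protein. GATAD1 carried no peak in any list. The nearest peak to ERVW-1 lay 327201 bp away in EV, 484985 bp in KD and 280718 bp in the list without a genotype. ERVH48-1, for suppressyn, lies on chromosome 21 at 42916803 to 42925630. Its nearest peak lay 60744 bp away in EV, 1484149 bp in KD and 410395 bp in the list without a genotype. NDUFV3, a respiratory chain gene 3504 bp from ERVH48-1, carried no peak either. ERVW-1 and ERVH48-1 thus lay far from the peaks of all 3 lists.

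ERV3-1, an envelope gene also known for expression in the placenta, lies on chromosome 7 at 64990356 to 65006687. It overlaps ZNF117, a zinc finger gene, by 681 bp, and a readthrough gene, ERV3-1-ZNF117, spans both. No list had a peak in any of these genes, and the nearest lay 57215 bp from ERV3-1 in EV, 64760 bp in KD and 105933 bp in the list without a genotype. Between 50 and 200 kb from the gene, peaks covered 4.69% in EV, 0.344% in KD and 1.03% in the list without a genotype. The gene therefore lay unmarked within a part of chromosome 7 that carried peaks farther out.

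The downstream start of ERV3-1 is shown as a counterpart to ERVFC1, since it holds the same motifs and no list marked the gene. Neither motif was found at the other start of ERV3-1. The windows of ERVFC1 and of both ERV3-1 starts lay under no peak, so these windows do not differ in the mark. At the downstream start TATAAA lies at position -30, against -58 in ERVFC1, in capitals with the CG dinucleotides, of which there are 4. AATAAA was found at position 44 of its 300-base window. It is chr7:64999413-64999692, minus strand.
ERV3-1: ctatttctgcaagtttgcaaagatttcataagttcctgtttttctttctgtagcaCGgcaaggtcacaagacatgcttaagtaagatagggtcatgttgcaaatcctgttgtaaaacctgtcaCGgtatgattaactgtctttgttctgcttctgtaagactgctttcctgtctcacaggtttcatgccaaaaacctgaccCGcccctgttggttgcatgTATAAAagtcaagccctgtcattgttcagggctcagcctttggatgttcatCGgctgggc

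**Figure D5:**
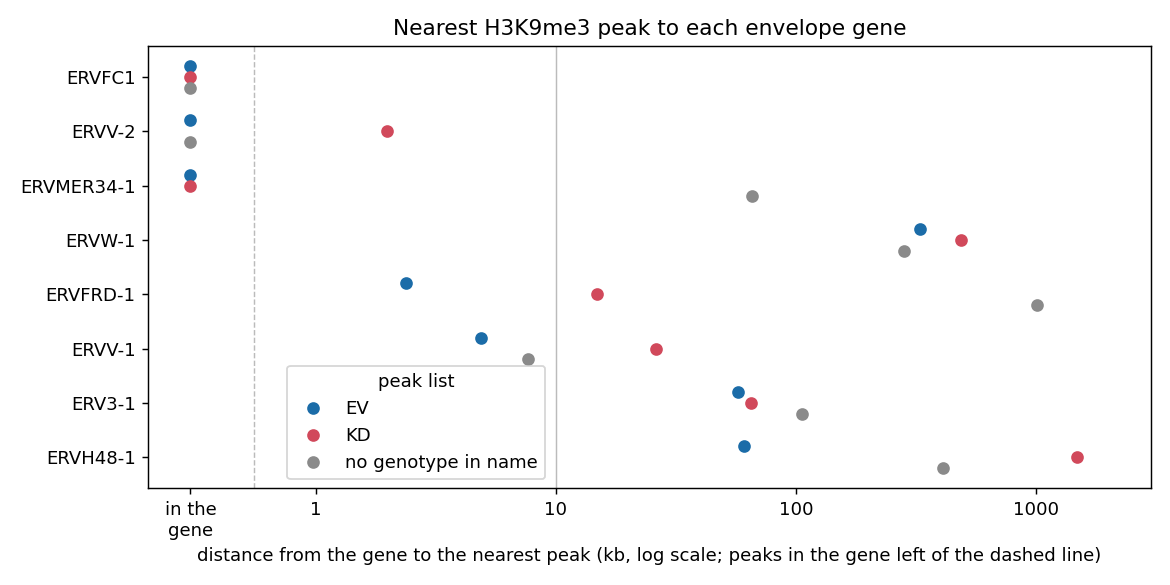
Distance in kb (log scale, horizontal axis) from each envelope gene to the nearest H3K9me3 peak of the EV, KD and no-genotype lists (points), with peaks in the gene placed left of the dashed line and a grey line at 10 kb. ERVFC1 has a peak in the gene in all 3 lists, while ERVW-1, ERV3-1 and ERVH48-1 have none within 50 kb in any.

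Promoter windows were matched for 5 of the 8 members, with 6 windows, since ERV3-1 has a pair of starts. ERVFRD-1, ERVV-2 and ERVH48-1 had no entry. Of the 6 windows, 0 held a peak in EV, 1 in KD and 0 in the list without a genotype, against 1.69%, 1.15% and 0.288% of windows of all protein-coding genes. The CG count of the 300-base windows varied widely, with 24 in ERVMER34-1, 16 in ERVFC1, 9 and 4 in ERV3-1, and 5 each in ERVW-1 and ERVV-1, and the median of all windows was 14. ERVW-1 also held TATAAA, at position -187. The window with the most CG dinucleotides, that of ERVMER34-1, was the one under the KD peak. This is a single window, and no link is read from it. Of all windows, 66.1% held fewer CG dinucleotides than that of ERVMER34-1.

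Within 10 kb, 5 of the 8 genes had a peak in EV, 3 in KD and 3 in the list without a genotype, against 35.3%, 16.1% and 9.61% of all protein-coding genes. For genes of like length these shares were 22.8%, 10.4% and 4.2%. The EV list covered more of the body than the KD list in 3 members and less in 0, against 22.9% and 3.16% of all protein-coding genes and 6.8% and 2.79% of those of like length. Summed over the 8 gene bodies, peaks covered 8777 bp in EV, 3321 bp in KD and 3848 bp in the list without a genotype. KD over EV, the covered length came to a ratio of 0.378, against 0.294 over all protein-coding gene bodies and 0.511 over those of like length. ERVFC1 supplied most of it, and the ratio over the other 7 members was 0.190. With 10 kb on each side the ratio was 0.301 for the 8 members, against 0.294 over all protein-coding genes and 0.37 over those of like length. For the 8 members together, the lower total in KD was thus of the same order as the difference between the lists over all genes. For the 7 members without ERVFC1, the ratio of gene bodies lay below both that over all genes and that over genes of like length. How far depth enters these ratios was not tested. The direction turned with equal peak numbers, where the 8 gene bodies held 0 bp under EV peaks and 3321 bp under KD peaks.

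Other genes of retroviral origin were counted in the same way. Of the 4 remaining genes named as ERV loci (ERVE-5, ERVK13-1, ERVK3-1 and the readthrough ERV3-1-ZNF117), 0 had a peak in EV or KD, and 1 had a peak in the list without a genotype. Over all protein-coding genes the shares with any peak were 24.5% in EV, 11.5% in KD and 7.26% in the list without a genotype. The readthrough contains all of the member ERV3-1 and so is not a separate locus. The 4 genes had a median length of 13244 bp, and ERVE-5 and ERVK13-1 are non-coding. ERVE-5, on chromosome 19, was covered over 18.7% in the list without a genotype. Among 25 genes derived from retroelement gag or pol, 3 had a peak in EV, 1 in KD and 0 in the list without a genotype, and 0 reached 10%. A covered share of 10% was reached by 2.75%, 1.55% and 0.774% of all protein-coding genes. The 25 genes are short, with a median length of 4677 bp against 24115 bp for all protein-coding genes. In protein-coding genes of the members' length range, the shares with any peak were 8.13%, 5.32% and 1.69%. The 3 genes with a peak, ASPRV1 (154659 bp), RTL1 (23970 bp) and RTL4 (374502 bp), were all longer than that range. No gene of this group within the range had a peak in any list. RTL1, an imprinted gene needed in the placenta, was covered over 3.68% in EV and 0% in KD, and RTL4 over 0.241% and 0.149%.

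Of 6 genes for syncytin receptors and placental fusion, 2 had a peak in EV, 3 in KD and 0 in the list without a genotype, against the same 24.5%, 11.5% and 7.26%. SLC1A5, which encodes the amino acid transporter used by syncytin-1 as receptor, was covered over 11.7% in EV and 3.99% in KD. SLC1A4, a related transporter that syncytin-1 can also use, had 2.97% and 0.839%. DYSF went the other way, with 0.415% in KD and no peak in EV or the list without a genotype. MFSD2A, the syncytin-2 receptor gene, had no peak. Of 18 genes that act in H3K9me3 silencing of retroelements, 10 had a peak in EV, 3 in KD and 1 in the list without a genotype, also against 24.5%, 11.5% and 7.26%. Their median length was 41714 bp, and a longer gene has more room for a peak. ZNF274, which encodes a zinc finger protein that recruits SETDB1, was the one covered in the list without a genotype, over 7.06%, beside 40.9% in EV and 7.44% in KD. SUV39H2, an H3K9 methyltransferase gene, was covered over 5.19% in EV and 4.95% in KD. MPHOSPH8, which encodes a subunit of the HUSH silencing complex, had 2.79% in EV and no KD peak.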

How the data were processed

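H3K9me3 ChIP-seq of HEK293T cells was analysed from 3 deposited broad peak lists. Reads were aligned with Bowtie2 and peaks called with MACS2 on GRCh38, per the submitters' processing notes, without versions. Calling options, control libraries and filters are not stated there. For each peak the authors deposited a fold enrichment (a ratio over the caller's background), a −log10 p, a −log10 q and an integer score, which was not used. These values describe peaks within their own list.

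Peaks on chromosomes 1 to 22, X and Y were kept: 24665 in EV, 12650 in KD and 14362 in the list without a genotype. Covered share is the bases of a RefSeq (GRCh38.p14) gene body under peaks over its length, and overlap means at least 1 bp. The gene table has no exons, so exon and intron context was not used here, nor were protein sequences, whose comparison had been planned. Coordinates count from 1. Interval functions (Python 3.11.15, numpy 2.4.6, pandas 2.3.3) were tested on simulated data. Covered bases and merging were compared with base-by-base counting, and overlap counts with bedtools 2.31.1. Plots used matplotlib 3.10.9.

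The 8 genes, the other gene lists and the settings were chosen with earlier results of these data known. Besides the members, the genes named are those overlapping a member's 10 kb window, up to 4 per list with the largest covered share, and the 5 most like ERVFC1; the text gives a selection. Alternatives were stricter −log10 q, fold enrichment, peak width, equal peak numbers, joined peaks, other regions measured and other overlaps.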

Additional observations from a re-analysis of the deposited data

How the results depend on the processing

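The number of members with at least 10% of the body covered was 3 in EV, 1 in KD and 2 in the list without a genotype. With a −log10 q of at least 2 these counts were 1, 0 and 1, and with at least 5 they were 0, 0 and 0. In EV the count was 1 when peaks needed a fold enrichment of 3, and 0 with an equal number of peaks. The EV count was 2 with 10 kb or 2 kb on each side of the gene body and 2 at 25% of the body. In KD it was 2 with any overlap. In the list without a genotype it was 1 with 10 kb on each side of the gene body and 1 at 25% of the body. The KD/EV ratio of covered length, 0.378, became 0.0942 with a −log10 q of at least 2, 0.566 with a fold enrichment of at least 3, 0.714 with peaks within 3 kb joined, 0.340 with peaks of at least 500 bp, 0.301 with 10 kb on each side and 0.413 with 2 kb. It stayed below 1 in each of these 6, and had no value with a −log10 q of at least 5, where both lists had no covered base, or with an equal number of peaks. There the direction turned, with 0 bp in EV and 3321 bp in KD. With an overlap of at least 50% of both peaks, 1 EV peak and 1 KD peak in the windows had a partner, against 3 and 5.

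The EV minus KD difference of ERVFC1, 40.6 percentage points, was 76.8 with a −log10 q of at least 2 and 0 with at least 5. It was 1.99 with peaks within 3 kb joined, by construction, since the gaps between the KD peaks then count as covered. It turned to -36.2 with an equal number of peaks, also by construction, since the EV peak lay below the −log10 p of 4.60 kept. That of ERVMER34-1, 6.91 percentage points, was -6.23 with a −log10 q of at least 2, with a fold enrichment of at least 3 and with an equal number of peaks, each of which left out its EV peak. That of ERVV-2, 25.1 percentage points, was 0 under these 3 settings. No paired analysis was possible because each group had 1 library. The lists hold no read counts, so depth could not be weighed.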
